A study of Mus musculus with 8 samples.

Results

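CTCF binding at imprinted genes other than H19 and Igf2 was examined in immortalised mouse embryo fibroblasts (iMEF) before and after Ash2l loss. The set comprised 41 genes in 20 imprinted domains. A CTCF binding site belonged to it when the centre of the site lay inside, or within 10 kb of, the body of such a gene on mm9 (GENCODE vM1). Of the 104008 sites listed for the experiment, 146 met this rule, and they fell in 19 of the 20 domains. A gene body was annotated for 39 of the genes, while Kcnq1ot1 and Peg13 had none. Ndn and Nap1l5 had a body and no site, the nearest ones lying 27.6 kb and 14.7 kb from their starts. 16 sites belonged to a pair of genes at once.

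All samples came from 1 line of iMEF, in which exon 4 of both Ash2l alleles was flanked by loxP sites, which expressed the Cre-ER recombinase and which had been immortalised with an shRNA against Arf. Ash2l belongs to the core of the KMT2 enzyme complexes, which methylate lysine 4 of histone H3 (H3K4). The cells were kept for 7 days in 5 nM 4-hydroxytamoxifen (+HOT), the ligand of Cre-ER, so that the floxed exon is deleted, or in the ethanol vehicle (-HOT). Both groups carried the same alleles and transgenes. The +HOT cells stop dividing after day 3 and, unlike the -HOT cells, were not split again on day 5, so loss of Ash2l and arrest of division cannot be told apart. CTCF ChIP-seq was available as 2 libraries per group, numbered R1 and R3, which the study calls technical replicates. The p-values below therefore measure the spread between these libraries only, which may be technical. The 4 inputs were not analysed here.

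Imprinted genes are transcribed from a single parental allele. The choice is set by DNA methylation laid down in the germline of the parent at short CpG-rich regions, the germline differentially methylated regions (DMRs), and kept after fertilisation. CTCF is a zinc finger protein that binds insulators and the anchors of chromatin loops, and at several imprinted regions it binds the unmethylated allele only. H3K4 methylation is known to keep DNA methyltransferases away from CpG islands. The counts in this experiment do not separate the parental alleles, and in a bulk of cells fewer cells with a bound site and less binding per cell cannot be told apart.

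The DNA under the sites that the results turn on is shown first. A word of the CTCF consensus was searched on both strands in the central 300 bp of each site: the letters CC, any 3 bases, AG, any 2 bases, GGC. It was present in 74 of the 146 sites (50.7%), against 54.6% of all listed sites. The following stretches of 28 bases, read 5′ to 3′ on the strand of the word, carry it in capitals, on the NCBIM37 assembly of mm9. The first set comes from sites that were called changed or passed the adjusted p.
Rtl1 and Rian, gained, plus strand, chr12:110833308-110833335: ttgcatttCCTTGAGGGGGCcactgggt
H13, lost, plus strand, chr2:152497490-152497517: agttccagCCAGGAGAGGGCattcgtaa
Kcnq1, gained, minus strand, chr7:150319655-150319682: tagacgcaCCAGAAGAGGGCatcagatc
Kcnq1, higher, minus strand, chr7:150296878-150296905: tacctttgCCACCAGAGGGCtctaaaca
Zim1, higher, minus strand, chr7:6641640-6641667: tgtggaaaCCAGAAGAGGGCatcagatc
H13 and Mcts2, lower, plus strand, chr2:152504188-152504215: cagacataCCAGCAGAGGGCatcggatt
H13, lower, plus strand, chr2:152522674-152522701: ccctgcggCCACCAGGTGGCgggcttgc
Inpp5f, lower, minus strand, chr7:135833874-135833901: agacatgaCCAGAAGGGGGCgcagtcct
Cdkn1c, lower, minus strand, chr7:150656057-150656084: gaccttggCCAGCAGGCGGCgcccaggt
Trappc9, higher, minus strand, chr15:72445128-72445155: tataacatCCATGAGAAGGCttctgcct
Trappc9, lower, plus strand, chr15:72899461-72899488: acatgtgaCCACCAGGTGGCagaaggtg
The second set comes from strong sites that did not pass it and is shown for comparison.
Airn, minus strand, chr17:13003521-13003548: aggttataCCACAAGGGGGCactattgc
Meg3, minus strand, chr12:110781242-110781269: catagagaCCGCTAGGGGGCgcgcggcc
Peg3, minus strand, chr7:6680108-6680135: tttgttggCCACAAGGGGGCatctggta
Zrsr1, plus strand, chr11:22865802-22865829: cagacatgCCACTAGAGGGCatcggatc
Gained as well as lost sites carried the word, while the gained Ascl2 site and the lost sites of Airn and of H13 with Mcts2 held none. The stretches of Kcnq1 (gained) and Zim1 are identical over the word and the 8 bases after it. The same 20 bases also occur in sites of the set that did not pass the adjusted p. Among these are sites of Trappc9 at 72740352 (log2FC 0.63), H13 at 152499337 (0.06) and Airn at 13000357 (-0.56). In the stretches of Kcnq1 (gained) and Zim1, as in those of H13 with Mcts2 and of Zrsr1, the word is followed directly by ATC, any base, GAT. Such letters are known from B2 short interspersed repeats, many of which carry CTCF words, and repeat annotation was not used here.

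The start of H13 lies under a strong site. The RefSeq promoter of H13 (chr2:152494947-152495246, plus strand, 250 bases before to 50 after the start) is shown because the site covers it whole, with the single word in capitals.
H13 promoter: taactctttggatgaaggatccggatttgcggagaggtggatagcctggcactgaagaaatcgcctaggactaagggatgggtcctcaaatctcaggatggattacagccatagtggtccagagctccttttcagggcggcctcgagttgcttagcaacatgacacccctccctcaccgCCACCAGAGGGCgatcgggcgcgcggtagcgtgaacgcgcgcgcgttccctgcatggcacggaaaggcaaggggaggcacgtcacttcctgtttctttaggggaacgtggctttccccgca
The word is a description of the sequence. It occurred in 5 of 45 RefSeq promoters of the set (11.1%; 32 genes matched by symbol, each promoter found once in NCBIM37) and in 8.61% of 32851 mouse promoters.

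The libraries held 4221752 and 3126722 reads in sites for -HOT and 9280701 and 7653295 for +HOT, so the +HOT libraries were the deeper ones, and the part of depth in the results was not tested. Reads per site are given as normalised reads, which are counts scaled to the mean library. They compare a site between libraries and are not divided by the width of the site, which ranged from 178 to 921 bp in the set. Exon 4 of Ash2l, the deleted part, lies under a weak site, which held 17.7 and 11.9 normalised reads in -HOT and 6.51 and 14.8 in +HOT. With these counts a difference was not detectable (log2FC -0.54, edgeR adjusted p = 0.543). The deletion was therefore not visible in the reads of this site.

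Of the 146 sites, 137 passed the filter on low counts and were tested among 99560 sites. The 9 untested ones held at most 10.5 normalised reads on average. At an adjusted p below 0.05 and a change of more than 2-fold (absolute log2FC above 1), 3 sites were gained (2.19%) and 3 were lost (2.19%) upon Ash2l loss. Among all tested sites 3.9% were gained and 1.5% were lost. Without the fold threshold, 7 sites were higher in +HOT (5.11%, against 9.45% of all sites) and 16 were lower (11.7%, against 9.08%). The +HOT libraries lay above both -HOT libraries at 37 sites and below both at 43, while 29.6% and 27.2% of all tested sites did so. The median log2FC was -0.07 (quartiles -0.32 and 0.24), against 0.01 (quartiles -0.30 and 0.39) over all tested sites. The shares of changed sites at imprinted genes thus lay within a few percentage points of the background in each direction.

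**Figure D1:**
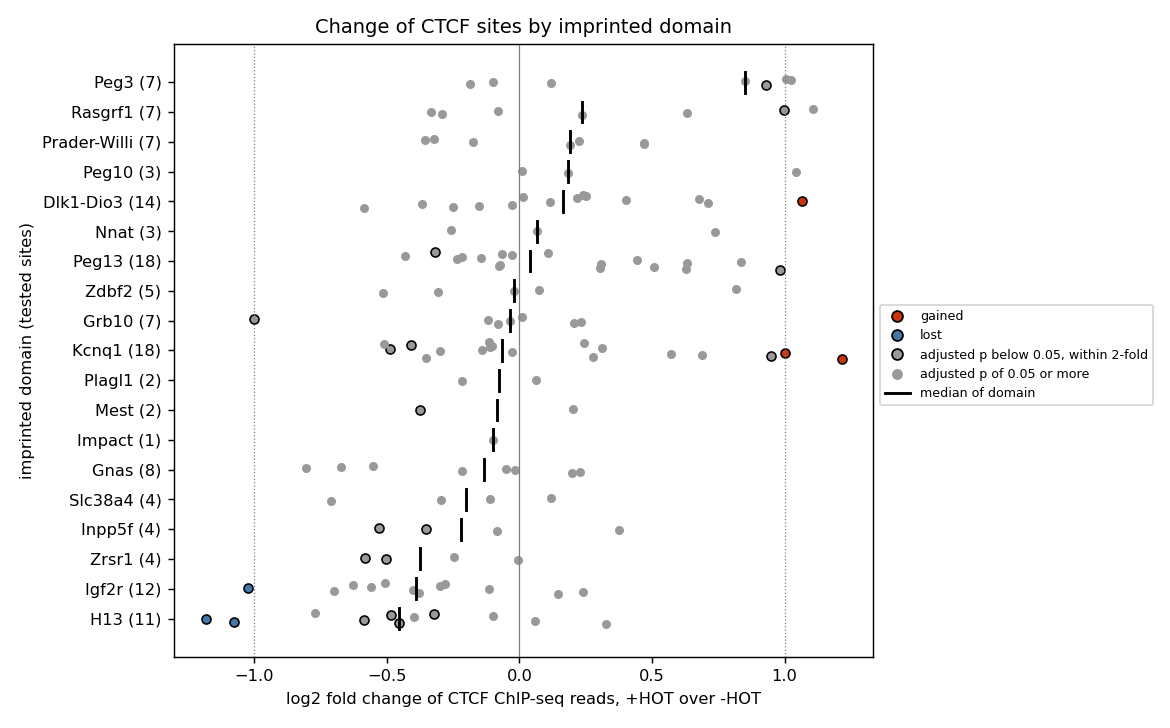
Change of each tested CTCF site at imprinted genes, by domain. The horizontal axis is the log2 fold change of +HOT over -HOT, each point is 1 site, the vertical bars are domain medians, red points are gained, blue points are lost, and black outlines mark an edgeR adjusted p below 0.05. The H13 domain has the lowest median (-0.45) and 2 of the 3 lost sites, and the Peg3 domain has the highest median (0.85), with 1 of its 7 sites past the adjusted p.

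The gained sites were at Rtl1, Kcnq1 and Ascl2, and the lost sites were at H13 (2 sites) and Airn.

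**Figure D2:**
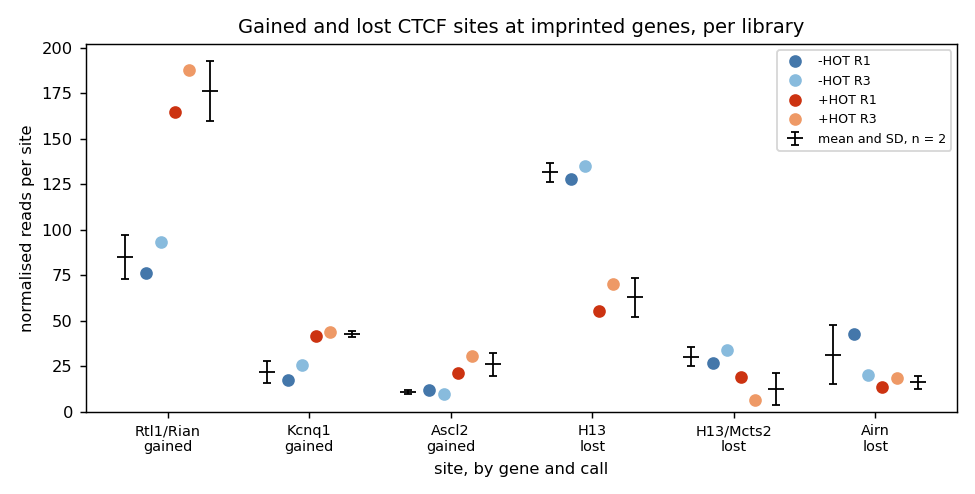
Normalised reads per site in each of the 4 libraries at the 3 gained and 3 lost sites. Points are libraries and the black marks are the group mean with its SD (n = 2). The Rtl1/Rian site and the stronger H13 site hold more than 50 reads in every library, while the other 4 sites stay below 50.

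H13 encodes signal peptide peptidase, an enzyme that cleaves signal peptides within the membrane, and Mcts2 is a retrogene inside an intron of H13 that is transcribed from the paternal allele. This domain held the densest group of sites of the set, with 11 sites in 59.2 kb (18.6 per 100 kb, against 5.23 over all member windows and 3.91 in the genome). Of these, 2 were lost and 4 more were lower at an adjusted p below 0.05. Summed over the domain, the normalised reads were 1387 and 1437 in -HOT and 1039 and 998 in +HOT, a difference of -27.9% with no overlap of the groups. No other of the 19 domains had a larger drop in this sum, and sums were not tested.

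The stronger lost site lay in an intron of H13 (chr2:152497238-152497689, 2193 bp after the start). It held 128 and 135 normalised reads in -HOT and 55.4 and 70.2 in +HOT, so that the groups were far apart. This was 2.11-fold lower after Ash2l loss (log2FC -1.07, SE 0.18, edgeR adjusted p = 6.37e-06). The word shown above lies 41 bp from the centre of this site. DESeq2 gave the same call (adjusted p = 0.000774), and leaving out +HOT R1 moved the log2FC to -0.90, within 2-fold. Next to it, the site over the H13 start (chr2:152494888-152495449, CpG-island-like) held 203 and 257 reads in -HOT and 161 and 170.0 in +HOT (log2FC -0.45, edgeR adjusted p = 0.00363). It did not pass with DESeq2 (adjusted p = 0.0530) or without -HOT R3 (0.165).

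The strongest site of the whole set lay in an intron of H13, upstream of Mcts2 (chr2:152503843-152504526). It held 289.8 and 297 normalised reads in -HOT and 193 and 197 in +HOT (a log2FC of -0.58 with SE 0.10, edgeR adjusted p = 2.49e-05). The replicates of each group lay close together and the groups were far apart. Beside it, a weak site was called lost (chr2:152504751-152505077). It held 26.5 and 33.8 reads in -HOT and 18.9 and 6.24 in +HOT (log2FC -1.18, edgeR adjusted p = 0.0247), and this call ended without -HOT R1 (adjusted p = 0.0600), without -HOT R3 (0.165) and without +HOT R3 (0.284), and DESeq2 gave it no adjusted p. Further along H13, the sites at 152518745 (1526 bp after an internal H13 start, 262 and 241 reads against 189.5 and 170.0) and at 152522408 (238 and 235 against 203 and 175) were lower as well, with log2FC -0.49 and -0.32 (edgeR adjusted p = 0.000912 and 0.0346). The first did not pass without -HOT R1 (adjusted p = 0.0551), and the second did not pass with DESeq2 (0.163), with total counts (0.0744) or without -HOT R1, -HOT R3 or +HOT R3 (0.193, 0.0821 and 0.235). The site nearest to the Mcts2 start (chr2:152515212-152515459, 2451 bp after it) was weak, with 22.1 and 19.9 reads in -HOT and 13.7 and 18.7 in +HOT, and did not pass the test (log2FC -0.40, edgeR adjusted p = 0.550). The remaining sites of the domain held between 13.8 ± 2.94 and 157 ± 7.45 reads in -HOT and did not pass it either.

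**Figure D3:**
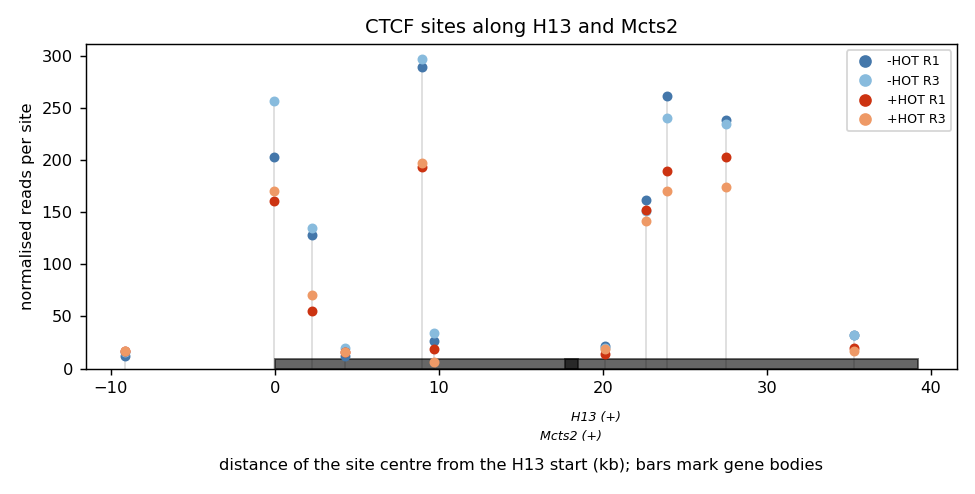
Normalised reads of the 11 sites along H13 and Mcts2 in each library, against the distance of the site centre from the H13 start in kb; bars mark the gene bodies. At the 5 sites that pass the adjusted p and hold over 50 reads, both +HOT libraries lie below both -HOT libraries.

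The 4 lower sites of H13 that stayed within 2-fold are strong sites, and strong sites as a whole were lower in +HOT. Of the 9303 tested sites over 160 normalised reads, 4746 were lower, with a median log2FC of -0.32. The 17 imprinted-gene sites of this strength had the same median of -0.32, all 17 had a negative log2FC, and 9 were lower. With scaling factors that follow the strength of the site, 10 of the 16 lower sites of the set no longer passed the adjusted p. Another 2 sites, at Dlk1 and Gnas, became lower under this scaling. Those 10 sites that no longer passed held 145 to 244 reads. Among them were the H13 start site (log2FC -0.18, adjusted p = 0.364) and the strongest H13 site (-0.23, adjusted p = 0.134). Both lost H13 sites kept their call under this scaling (log2FC -1.19 and -1.19).

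**Figure D4:**
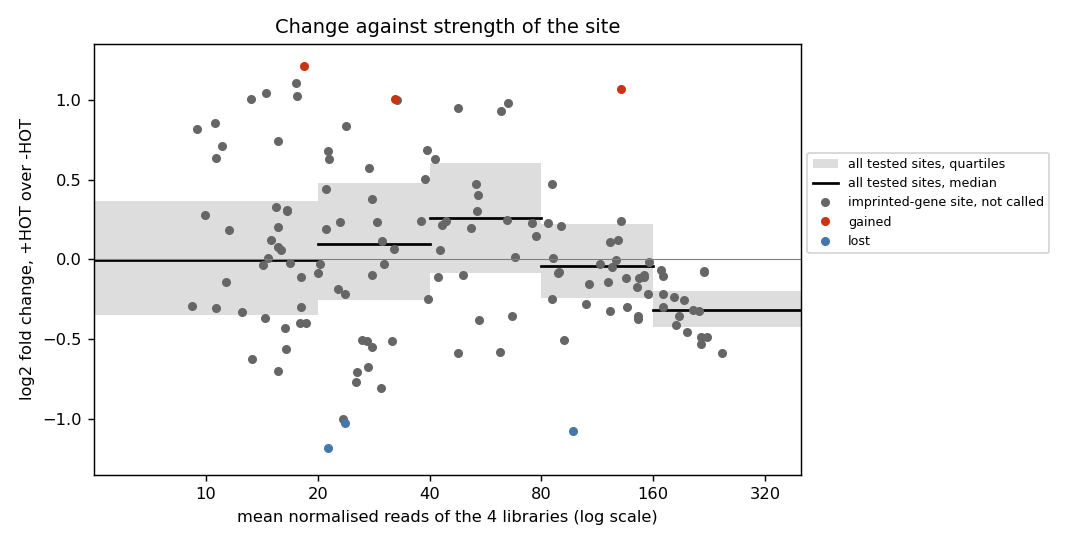
Log2 fold change of +HOT over -HOT against the mean normalised reads of the site (log scale). Points are the 137 tested imprinted-gene sites, and black lines and grey bands are the median and quartiles of all tested sites in 5 classes of strength. Over 160 reads, all 17 points lie below 0, as does the band of all sites. The stronger lost site lies far below the band of its class and the strongest gained site far above.

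In the other classes of strength the medians of the imprinted-gene sites and of all sites were 0.07 and -0.0048 below 20 reads (36 imprinted-gene sites), -0.03 and 0.10 from 20 to 40 reads (33 sites), 0.22 and 0.26 from 40 to 80 reads (21 sites), and -0.10 and -0.04 from 80 to 160 reads (30 sites). In both, the median was highest from 40 to 80 reads and lowest over 160 reads.

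The Dlk1-Dio3 domain on chromosome 12 codes for Dlk1, a ligand-like protein of the Notch pathway, Rtl1, a retrotransposon-derived protein needed in the placenta, and the deiodinase Dio3 on the paternal allele, and for the long RNAs Meg3, Rian (a host of small nucleolar RNAs) and Mirg (a host of microRNAs) on the maternal allele. It held 14 sites, and their summed reads were 688 and 715 in -HOT and 785 and 818 in +HOT (14.3% more, no overlap). Most of this difference lay in 1 site: without its gained site, the sums were 612 and 621 in -HOT and 621 and 630.2 in +HOT (1.44% more, groups overlapping). This gained site, the strongest of the 14, lies in the coding exon of Rtl1, within 10 kb of the start of Rian on the opposite strand (chr12:110832761-110833607). It held 76.5 and 93.6 normalised reads in -HOT and 165 and 188 in +HOT, a gain of 2.09-fold (log2FC 1.07, SE 0.15, edgeR adjusted p = 4.6e-07). This was the gained site of the set with the most reads, and DESeq2 called it too (adjusted p = 0.000520). The log2FC was 0.90 without -HOT R1 and 0.98 without +HOT R3, within 2-fold but still past the adjusted p.

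The 3 other sites assigned to Rian all had a positive log2FC (0.40, 0.68 and 0.22), and none passed the adjusted p. At Meg3 the strongest promoter site (chr12:110780866-110781445, 677 bp after a start) held 109 and 117 reads in -HOT and 97.7 and 105 in +HOT (log2FC -0.15, edgeR adjusted p = 0.581). The neighbouring site, centred 35 bp before an annotated Meg3 start (chr12:110780160-110780726), held 91.2 and 95.5 against 86.6 and 68.6 (log2FC -0.25). At Dio3 the strongest promoter site (chr12:111514130-111514685) held 61.8 and 55.7 against 66.4 and 74.9 (log2FC 0.25, edgeR adjusted p = 0.468). The site before Dlk1 (chr12:110684284-110684664) was the lowest of the domain, with 45.6 and 69.7 reads in -HOT and 33.9 and 41.3 in +HOT (log2FC -0.59, edgeR adjusted p = 0.0979). Changes at these sites were smaller than that at Rtl1, and none passed the test in the main fit. After scaling along site strength the Dlk1 site was lower (log2FC -0.82, edgeR adjusted p = 0.0234), and with DESeq2 it did not pass (adjusted p = 0.243).

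**Figure D5:**
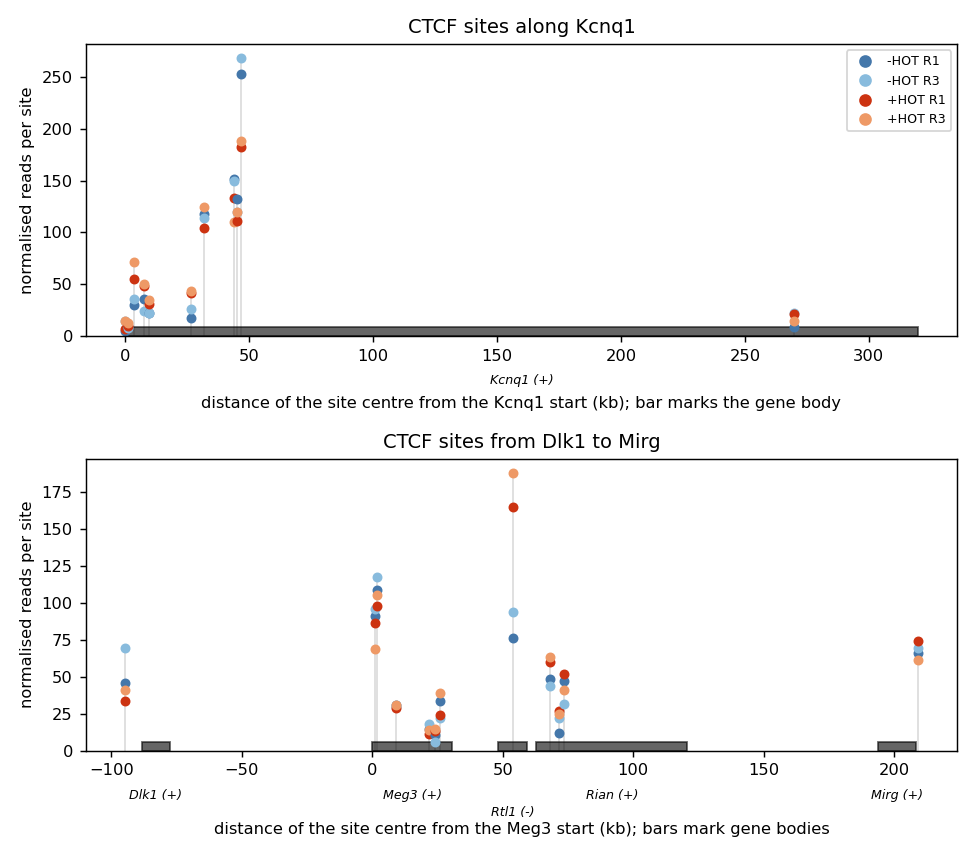
Normalised reads per library of the sites along Kcnq1 (upper panel) and from Dlk1 to Mirg (lower panel), against the distance from the Kcnq1 or Meg3 start in kb; bars mark gene bodies. In the upper panel the higher and gained sites lie within 27 kb of the start and hold under 75 reads, while the strongest one, at 46.8 kb, is lower in +HOT. In the lower panel the Rtl1 site is the only one with both +HOT libraries over 150 reads.

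Kcnq1 encodes a voltage-gated potassium channel. The paternal allele of this domain is silenced by the antisense RNA Kcnq1ot1, which starts in an intron of Kcnq1, and the maternal allele expresses Kcnq1, the cyclin-dependent kinase inhibitor Cdkn1c (p57), Phlda2, which restrains placental growth, and Ascl2, a factor of the trophoblast. The domain held 19 sites, of which 18 were tested, 2 were gained, 1 more was higher and 2 were lower. No site was listed near the Kcnq1ot1 start (chromosome 7, position 150482452, placed by its RefSeq promoter), the nearest one being 80.4 kb away.

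The gained Kcnq1 site (chr7:150319493-150319851, intron) held 17.7 and 25.9 normalised reads in -HOT and 41.7 and 43.7 in +HOT (a log2FC of 1.00 with SE 0.31, edgeR adjusted p = 0.0173). It sat on the fold threshold, and DESeq2 did not call it (adjusted p = 0.142), nor did scaling along site strength (adjusted p = 0.0646) or the fit without -HOT R1 (0.344). The higher site (chr7:150296653-150297127, intron) held 29.4 and 35.8 reads in -HOT and 54.7 and 71.0 in +HOT (log2FC 0.95, edgeR adjusted p = 0.00571). This site did not pass with DESeq2 (adjusted p = 0.0833), with scaling along strength (0.0622), without -HOT R1 (0.157) or without +HOT R3 (0.0564). The sites next to it at 150300684 (35.3 and 23.9 against 48.2 and 49.9) and 150302553 (22.1 and 21.9 against 30.6 and 35.1) also had no overlap between the groups and did not pass the adjusted p (0.0713 and 0.246). These 4 sites lie in the first 27 kb of Kcnq1. The strongest site of the domain, further into the same gene (chr7:150339586-150340270), went the other way, with 253 and 269 reads in -HOT and 183 and 188 in +HOT (a log2FC of -0.49 with SE 0.11, edgeR adjusted p = 0.000661), and like other strong sites it did not pass after scaling along strength (adjusted p = 0.368).

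The gained Ascl2 site is intergenic, 11342 bp downstream of the Ascl2 start (chr7:150143671-150143984). It was weak, with 11.8 and 9.95 normalised reads in -HOT and 21.5 and 30.4 in +HOT (a log2FC of 1.21 with SE 0.42, edgeR adjusted p = 0.0324). DESeq2 gave it no adjusted p, and the call ended without -HOT R1 (adjusted p = 0.170), without -HOT R3 (0.163) and without +HOT R3 (0.220). The Ascl2 promoter site (chr7:150153976-150154436) held 73.5 and 75.6 reads in -HOT and 52.7 and 64.7 in +HOT (log2FC -0.35, edgeR adjusted p = 0.258). Of the 3 strong sites upstream of Cdkn1c, the outermost (chr7:150655815-150656470) was lower, with 212 and 209 reads against 159 and 158 (log2FC -0.41, edgeR adjusted p = 0.00953), and the others overlapped between groups. The lower one did not pass with DESeq2 (adjusted p = 0.0891), with scaling along strength (log2FC -0.16, adjusted p = 0.441) or without -HOT R1 (0.101). The 3 Phlda2 sites did not pass the test, with log2FC from -0.51 to 0.24.

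In the Igf2r domain, Airn is a paternal antisense RNA that silences Igf2r, the receptor that clears insulin-like growth factor 2. Of 13 sites, 12 were tested and 10 of these had a negative log2FC. Summed reads were 702 and 623 in -HOT and 576 and 529.5 in +HOT (a difference of -16.6%). A weak site in an intron of Airn was called lost (chr17:12992146-12992448). It held 42.7 and 19.9 reads in -HOT and 13.7 and 18.7 in +HOT (a log2FC of -1.02 with SE 0.36, edgeR adjusted p = 0.0333). The R3 library of -HOT was close to the higher +HOT library, and without -HOT R1 the log2FC was -0.32 (adjusted p = 0.826). Without +HOT R1 it was -0.80 (adjusted p = 0.142), and with total counts the log2FC stayed within 2-fold (-0.97). The strongest site of the domain (chr17:13003287-13003775, intron of Airn) held 188 and 187 reads in -HOT and 156 and 148 in +HOT, no overlap, and did not pass the adjusted p (log2FC -0.30, edgeR adjusted p = 0.0809). At the Airn start, which lies in a germline DMR, the site (chr17:12934115-12934504) held 26.5 and 11.9 reads in -HOT and 15.6 and 8.58 in +HOT (log2FC -0.70, edgeR adjusted p = 0.293), and the strongest Airn promoter site held 42.7 and 25.9 in -HOT and 42.3 and 41.3 in +HOT (log2FC 0.24).

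The Peg3 domain codes for the zinc finger proteins Peg3 (paternal) and Zim1 (maternal) and for the ubiquitin protease Usp29 (paternal), which shares the promoter region of Peg3. The Zim1 site 118 bp before a start of this gene (chr7:6641423-6641858) was higher, with 39.7 and 45.8 normalised reads in -HOT and 61.9 and 102 in +HOT (a log2FC of 0.93 with SE 0.24, edgeR adjusted p = 0.00338). It passed the fold threshold without +HOT R1 (log2FC 1.27) and without -HOT R3 (1.01) and was not past the adjusted p with DESeq2 (0.0630), without -HOT R1 (0.0805) or without +HOT R3 (0.169). The strong site in the Peg3 promoter region (chr7:6679887-6680643) held 97.1 and 153 reads in -HOT and 126 and 139 in +HOT, so that the groups overlapped (log2FC 0.12). The sites of Usp29 at 6911320 and 6919122 had log2FC of 1.02 and 1.00 from means of 17.6 and 13.2 reads and did not pass the test (adjusted p = 0.124 and 0.178).

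Rasgrf1 encodes a guanine nucleotide exchange factor of Ras and is paternally expressed. It held 7 sites, with summed reads of 218 and 195 in -HOT and 257 and 254 in +HOT (23.8% more, no overlap). The site in a coding exon (chr9:89871383-89871752) was higher, with 23.5 and 19.9 reads in -HOT and 45.6 and 42.1 in +HOT (a log2FC of 0.996 with SE 0.31, edgeR adjusted p = 0.0155), just short of the fold threshold. It did not pass with DESeq2 (adjusted p = 0.132), with scaling along strength (0.0626), without -HOT R1 (0.0997) or without -HOT R3 (0.119). Leaving this site out, the sums of the other 6 were 14.6% higher in +HOT (194 and 175 against 211 and 212). The site past the 3′ end (chr9:89922589-89922901) held 10.3 and 11.9 against 22.1 and 25.7 and narrowly missed the adjusted p (log2FC 1.11, edgeR adjusted p = 0.0562). The strongest site of the gene (chr9:89868627-89869022) overlapped between groups, with 89.7 and 93.6 reads in -HOT and 99.0 and 71.7 in +HOT. The nearest site to the Rasgrf1 start lay 11.6 kb away, and the germline DMR of the gene, which lies upstream of it, was not covered by the windows.

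Peg13 is a long RNA gene within an intron of Trappc9, whose product is a subunit of the TRAPP vesicle tethering complex. Trappc9 carried 19 sites, more than any other gene of the set, over 492 kb. Its highest change was at an intron site near the 3′ end (chr15:72444942-72445448), with 48.5 and 37.8 normalised reads in -HOT and 87.3 and 86.6 in +HOT (a log2FC of 0.98 with SE 0.22, edgeR adjusted p = 0.000641). This site stayed past the adjusted p with DESeq2 (0.0284), after scaling along strength (0.0155) and without each library in turn, the largest p there being 0.0224. The strongest Trappc9 site (chr15:72640156-72641076, CpG-island-like) held 237 and 213 reads in -HOT and 231 and 197 in +HOT and overlapped between groups (log2FC -0.07). Upstream of the gene, the site at chr15:72899155-72899802 was lower, with 249 and 203 against 190.2 and 175 (log2FC -0.32, edgeR adjusted p = 0.0400), and did not pass after scaling along strength (adjusted p = 0.924), with DESeq2 (0.191), with total counts (0.0832), without -HOT R1 (0.653) or without +HOT R3 (0.150). The promoter site of Trappc9 (chr15:72891279-72891793) held 184 and 157 reads in -HOT and 174 and 154 in +HOT (log2FC -0.06).

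Grb10, an adaptor of insulin and growth factor receptors, is expressed from the maternal allele in most tissues and from the paternal one in neurons. Its site 694 bp before the main start (chr11:11939257-11939503) was lower, with 38.2 and 23.9 reads in -HOT and 18.2 and 13.3 in +HOT (a log2FC of -0.999 with SE 0.35, edgeR adjusted p = 0.0364), just within 2-fold. Without -HOT R1 the log2FC was -0.59 (adjusted p = 0.593). The site also did not pass without +HOT R3 (0.143) or with total counts (0.0508), and DESeq2 gave it no adjusted p. The strongest Grb10 site (chr11:11873304-11873855) held 231 and 219 reads in -HOT and 221 and 204 in +HOT, and these overlapped (log2FC -0.08). The CpG-island-like site at an internal start (chr11:11925504-11926120) held 146 and 135 against 134 and 126 (log2FC -0.12, adjusted p = 0.640).

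Inpp5f, an inositol phosphatase, and Zrsr1, a retrogene of a splicing factor that lies in an intron of Commd1, were listed as paternally expressed. The label was given per gene, not per transcript. Each of these genes had 2 lower sites. At Inpp5f these were the strong sites at 135833641 (212 and 211 reads against 173 and 158, log2FC -0.35, edgeR adjusted p = 0.0263) and 135849054 (219 and 293 against 171 and 178, log2FC -0.53, edgeR adjusted p = 0.000522). Both were among the sites that no longer passed after scaling along strength. Without -HOT R3 neither passed (adjusted p = 0.0791 and 0.0946), and the first did not pass with DESeq2 (0.141), with total counts (0.0556), without -HOT R1 (0.160) or without +HOT R3 (0.130) either. At Zrsr1 they were of medium strength: the site at 22869425 held 98.6 and 119 reads in -HOT and 81.4 and 69.4 in +HOT, and the CpG-island-like site over the Commd1 start, at 22882106, held 66.2 and 83.6 against 52.1 and 46.0. The log2FC were -0.50 and -0.58 (edgeR adjusted p = 0.0365 and 0.0491), and after scaling along strength -0.62 and -0.81, both still past the adjusted p. Neither passed with DESeq2 (adjusted p = 0.139 and 0.167), with total counts (0.0643 and 0.0792), without -HOT R1 (0.0521 and 0.0706), without -HOT R3 (0.280 and 0.348) or without +HOT R3 (0.196 and 0.181), and the second did not without +HOT R1 (0.0554). In both genes the sites stayed within 2-fold. The strongest Zrsr1 site, shown above, held 115 and 141 reads in -HOT and 121 and 131 in +HOT and hardly differed between the groups (log2FC -0.01).

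Mest, a hydrolase-like protein of growing mesoderm, had 1 lower site 934 bp before a RefSeq start that lies inside the annotated gene body (chr6:30686850-30687382, 156 and 173 reads in -HOT and 125 and 127 in +HOT, log2FC -0.37, edgeR adjusted p = 0.0430). It did not pass with DESeq2 or after scaling along strength (adjusted p = 0.166 and 0.275), with total counts (0.0815) or without any 1 of the 4 libraries (from 0.0881 to 0.235). In the Gnas domain, which gives several transcripts of the stimulatory G protein alpha subunit and its antisense partner Nespas, none of 8 sites passed in the main fit. The 3 sites around the promoter of the Gnas transcript at 174154346, 174155050 and 174156095 had log2FC of -0.80, -0.67 and -0.55. The first of these passed as lower after scaling along strength (edgeR adjusted p = 0.0443) and with a replicate block (0.0445), and not with DESeq2 (0.204). Within 3 kb of annotated Nespas starts, the CpG-island-like sites at 174109452 and 174122741 had 0.20 and 0.23. The site at 174109452 also lies 151 bp before a Gnas start. The strongest Gnas site (chr2:174136256-174136825) held 168 and 145 reads in -HOT and 158 and 154 in +HOT and overlapped between groups.

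The start site shared by Peg10, a retrotransposon-derived gene of the placenta, and Sgce, a sarcoglycan, held 82.4 and 89.6 normalised reads in -HOT and 92.5 and 78.8 in +HOT. The groups overlapped (log2FC 0.01, edgeR adjusted p = 0.981), with an SE of 0.18. In the Prader-Willi domain 7 sites at Snrpn, Magel2, Mkrn3 and Peg12 gave no call. The Magel2 promoter site (chr7:69520479-69521040) held 67.7 and 75.6 against 87.3 and 112 (log2FC 0.47, edgeR adjusted p = 0.0724), the Mkrn3 site (chr7:69572984-69573721) held 174 and 151 against 124 and 133 (log2FC -0.35, edgeR adjusted p = 0.0573), and the Snrpn promoter site (chr7:67152593-67153005) held 38.2 and 51.8 against 57.3 and 65.5 (log2FC 0.47, edgeR adjusted p = 0.170). Magel2 and Snrpn thus had more reads in +HOT and Mkrn3 fewer, within what the test allowed.

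The other domains gave no call at an adjusted p below 0.05. The strongest site near Nnat, a small membrane protein gene inside an intron of Blcap, held 209 and 213 reads in -HOT and 176 and 176 in +HOT (log2FC -0.26). The strongest site at Plagl1, a zinc finger factor, held 174 and 159 in -HOT and 152 and 134 in +HOT (log2FC -0.22). The sites at the amino acid transporter Slc38a4, at Zdbf2 and at Impact, a regulator of translation, were weak, the strongest of each holding 36.8 and 25.9 against 18.2 and 21.1, 39.7 and 23.9 against 28.0 and 17.2, and 33.8 and 23.9 against 32.6 and 21.8 reads. At that depth only large changes would have passed the test.

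Because the rule takes only sites in or near gene bodies, it favours promoters over intergenic sites, and the following shares are a description. Within 3 kb of the nearest annotated start of any gene lay 47 of 146 sites (32.2%), against 16.9% of all sites, and 16 (11.0%) were CpG-island-like, against 4.99%. Of 45 tested promoter sites, 0 were gained, 1 was lost (2.22%), 1 was higher (2.22%) and 7 were lower (15.6%) by edgeR, with a median log2FC of -0.15. Of all 17077 tested promoter sites, 1.29% were gained, 6.01% lost, 3.53% higher and 23.99% lower, and the median was -0.28. Intragenic sites of the set (70 tested) had a median of -0.02, against 0.02 over all, and intergenic sites (22 tested) of -0.05, against 0.12. At an unadjusted p below 0.05, 1 promoter site of the set was past the fold as gained, and DESeq2 called 0. The promoter sites thus had the lowest median in the set as in the whole table.

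Of 16 genes listed with a start in a germline DMR, 12 had a site within 3 kb of a start. Any annotated start of such a gene counted, also one far from its RefSeq start. The Usp29 site at 6911320 and the Plagl1 site at 12847135 were counted in this way (RefSeq starts at 6683294 and 12810638). Overlap of the sites with the DMRs themselves was not checked. The list may also be incomplete: Gnas, Grb10 and Inpp5f, which have internal starts, were not on it. Sites at their starts were counted only where a listed gene shared them, so the values below hold for the listed genes only. The 16 tested sites of this class gave no gained and no lost call by edgeR or DESeq2. Among all tested sites 3.9% were gained and 1.5% lost by edgeR, and 16 sites are too few to differ from that. By edgeR 2 were lower (12.5%, at Mest and Zrsr1), against 9.08% of all tested sites and 23.99% of all tested promoter sites. A positive log2FC was found at 11 (median 0.16), and at 50443 of all 99560 tested sites (median 0.01). At an unadjusted p below 0.05, 1 of the 16 sites was past the fold as gained and 0 as lost. The 1 site was that of Usp29 at 6911320, far from the RefSeq start. The other genes of this list were Kcnq1ot1, Impact and Nap1l5, for which no site was listed near a start, and Peg13. The start of Peg13 could not be placed with the annotation used, so whether a site lies near it is not known. Sites of genes listed as paternally expressed (71 tested) had a median of -0.10 with 1 gained (1.41%) and 2 lost (2.82%). Sites of genes listed as maternally expressed (66 tested) had a median of -0.05 with 3 gained (4.55%) and 2 lost (3.03%). These labels were given per gene, not per transcript or tissue, and expression by allele was not measured here. The shares over all tested sites were 3.9% and 1.5%, and the classes were not tested against each other. 13 sites belonged to genes of both kinds, among them the gained Rtl1 and Rian site and the lost H13 and Mcts2 site.

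In the H13 domain 6 sites carried the CTCF word on the plus strand, 1 on the minus strand and 4 held none. In the Kcnq1 domain 9 carried it on the minus strand, 1 on the plus strand and 9 held none. The word followed by ATC, any base, GAT was found in 18 sites of the set (12.3%) and in 15.8% of all sites. Of its 17 tested sites, 1 was gained and 0 were lost by edgeR (0 also at an unadjusted p below 0.05, and 0 gained or lost by DESeq2), and the median log2FC was 0.06, the same as over the 15618 tested sites of this kind. The 68 tested sites without the word had a median of -0.10, against -0.04 in all such sites. This split was made after the sequences had been seen, and no test was run on it.

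For comparison, 33 neighbouring genes of these domains that are not members of the set were listed, of which 30 were annotated. Whether these neighbours are imprinted themselves was not assessed. Their 118 tested sites that do not belong to the set as well had 2 gained (1.69%), 0 lost, 10 higher (8.47%) and 16 lower (13.6%) calls by edgeR (median log2FC 0.02), with 1 lost at an unadjusted p below 0.05 and 0 lost by DESeq2. At 12 genes whose products maintain imprints, such as Zfp57, Trim28, Dnmt1 and Uhrf1, 79 sites were tested, with 0 gained, 1 lost (1.27%), 2 higher (2.53%) and 9 lower (11.4%) by edgeR (median -0.10), and 0 were gained by DESeq2 or at an unadjusted p below 0.05. Over all tested sites the shares were 3.9% gained, 1.5% lost, 9.45% higher and 9.08% lower. Imprinted-gene sites took 0.162% and 0.161% of the site reads in -HOT and 0.156% and 0.153% in +HOT, a difference of -0.00698 percentage points. The groups did not overlap, and an exact two-sided permutation test over the 4 libraries gave p = 0.333, the smallest p that 2 against 2 allows. At the edge of the 10 kb window, the last site inside lay 9418 bp from Inpp5f (135849054, given above), and the first one outside, 11033 bp from Zrsr1 (chr11:22887243-22887819), held 204 and 173 reads in -HOT and 143 and 143.5 in +HOT.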

How the data were processed

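CTCF ChIP-seq was measured in 4 immunoprecipitations, grouped by the sample titles. The authors' methods give Trim_Galore for trimming, BWA for alignment to mm9, removal of duplicates and of blacklisted regions, and MACS2 for narrow peaks. Tool versions, and whether peaks were called on pooled libraries, were not stated. The deposited tables hold raw read counts per site, which the authors normalised with DESeq2 for their own comparison. They also hold fold changes and p-values of the authors' own comparison, which were not used, and 4 columns of normalised values per library, not used either. Columns are numbered R1 and R3 where the titles say R1 and R2, so columns were assigned to groups only.

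Counts were tested with the edgeR 4.0.16 quasi-likelihood test under R 4.3.3 (robust fit, TMM factors, sites kept by filterByExpr at 10 counts) over 99560 sites, with Benjamini-Hochberg adjustment. An SE was taken as |log2FC| over the root of the F statistic. For normalised reads, each count was scaled by the ratio of the mean to the library's own effective size. Replicates differed by a chi-square per degree of freedom of 1.09 (-HOT) and 1.41 (+HOT), where 1 is sampling noise. The test was run on simulated data first.

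Site positions are as deposited. They were placed on NCBIM37 and GENCODE vM1 by their centre. CpG-island-like means over 50% GC and a CpG ratio over 0.6 in the central 500 bp. Genes, domains and lists were chosen with earlier results of these data known. Sites were named by rule: the strongest of each domain, the strongest promoter site of each gene (within 3 kb of any of its starts), and all gained or lost sites. Other sites were named after their values were seen. Alternatives were DESeq2 1.42.0, other scalings, filters, windows and a lower fold threshold, a replicate block, and leaving out each library.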

Additional observations from a re-analysis of the deposited data

How the results depend on the processing

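The 3 gained, 3 lost, 7 higher and 16 lower sites and the median log2FC of -0.07 moved with some settings. With total counts there were 7 gained and 9 lower sites (median -0.022). With scaling along site strength there were 4 higher and 8 lower sites (median -0.019). DESeq2 gave 1 gained (Rtl1/Rian), 1 lost (H13), 2 higher and 5 lower sites, so that 2 of the 6 called sites stayed called. Gene bodies alone gave 9 lower sites, and windows of 25 kb gave 11 higher sites (median -0.027). An absolute log2FC above 0.5 gave 7 gained and 8 lost sites. Leaving out 1 library gave 1 to 8 gained (8 without +HOT R1), 1 to 3 lost, 2 to 12 higher and 5 to 14 lower sites, medians from -0.137 to -0.0137, 1 to 5 calls among the 45 sites named by rule (6 with all libraries) and differences of the read share from -0.00823 to -0.00573 percentage points. Of the 6 called sites, 1 stayed called without -HOT R1 (the stronger H13 site), 4 without -HOT R3, 4 without +HOT R1 and 2 without +HOT R3. The cause of these changes was not tested. Shares over all tested sites were given for the main setting only. Whether these counts moved together with those of the whole table can therefore not be told.

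Whether the library numbers pair samples is not known. Deviations of equal numbers correlated with r = 0.0287 across sites. With replicates this near to sampling noise (chi-square per degree of freedom 1.09 and 1.41), that value cannot decide it. With the number as a replicate block there were 4 gained, 3 lost, 8 higher and 18 lower sites (median -0.07) and 5 of the 6 sites stayed called. Over the sites named by rule, 23 of 490 refits lost a call, 2 gained one and none changed direction past the threshold. Only the 6 called sites had a call to lose, so the 23 are not a share of all 490 refits. Few weak sites were called, in the set as in the whole table. Under 20 reads, 1 of 36 sites was gained (2.78%) and 0 were lost. Of all 28788 tested sites of this strength, 2.16% were gained and 1.08% were lost. Changes at weak sites may have been missed.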
